A study of Homo sapiens with 3 samples.

Results

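The linker histone H1 genes examined here were H1FX, HIST1H1B, HIST1H1C, HIST1H1D and HIST1H1E, 5 of the 44591 genes in the deposited table, found by their symbols and read in 3 RNA-seq libraries. The family was chosen with its ratios between libraries already known, so those ratios are given as a description and carry no test. The libraries came from Caki-1, an established human line from a clear cell renal cell carcinoma, 48 h after transfection with si-Control or with si-HOIL-1#1 or si-HOIL-1#2, 2 siRNAs against RBCK1, which encodes the ubiquitin ligase HOIL-1. The general transfection paragraph of the study's methods gives 10 nmol/L siRNA. There was 1 library per condition, all from 1 line and with no further treatment named, so a replicate check is lacking for each difference below. Both comparisons used the same si-Control library, and the 2 siRNAs were not treated as replicates.

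Linker histones bind the nucleosome where DNA enters and leaves it and hold the DNA between nucleosomes, which favours compact chromatin. HIST1H1B, HIST1H1C, HIST1H1D and HIST1H1E belong to the large histone cluster on chromosome 6; genes of this kind are replication-dependent, have no introns, and make mRNAs in S phase that mostly end in a stem-loop in place of a poly(A) tail. H1FX is a divergent variant that lies outside the cluster and is also made outside S phase.

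The promoters of all 5 genes had an entry in RefSeq (GRCh38.p14), and 3 are shown because they hold the main contrast in levels: HIST1H1C and HIST1H1E lie in the same cluster at very different levels, and H1FX lies outside it. Each window runs from 250 bases before to 50 bases after the start of the gene. Capitals mark matches on either strand to AAACACA (the H1 box), CCAAT (the CCAAT box), GGGCGG (the GC box), TATAAA (the TATA box) and TATATA, and the last of these can overlap TATAAA.
HIST1H1C, chr6:26056421-26056720, minus strand: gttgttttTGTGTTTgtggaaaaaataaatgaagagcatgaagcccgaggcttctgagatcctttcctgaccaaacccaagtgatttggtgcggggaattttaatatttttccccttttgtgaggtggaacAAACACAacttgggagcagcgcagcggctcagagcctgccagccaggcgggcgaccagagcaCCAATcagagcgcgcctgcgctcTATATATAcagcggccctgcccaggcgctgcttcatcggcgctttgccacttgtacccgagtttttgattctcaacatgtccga
HIST1H1E, chr6:26156079-26156378, plus strand: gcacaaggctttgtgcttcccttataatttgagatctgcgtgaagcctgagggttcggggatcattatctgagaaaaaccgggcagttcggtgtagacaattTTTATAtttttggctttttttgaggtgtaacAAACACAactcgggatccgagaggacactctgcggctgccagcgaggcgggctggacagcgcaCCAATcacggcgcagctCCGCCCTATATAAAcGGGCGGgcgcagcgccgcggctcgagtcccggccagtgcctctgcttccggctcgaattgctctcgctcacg
H1FX, chr3:129316237-129316536, minus strand: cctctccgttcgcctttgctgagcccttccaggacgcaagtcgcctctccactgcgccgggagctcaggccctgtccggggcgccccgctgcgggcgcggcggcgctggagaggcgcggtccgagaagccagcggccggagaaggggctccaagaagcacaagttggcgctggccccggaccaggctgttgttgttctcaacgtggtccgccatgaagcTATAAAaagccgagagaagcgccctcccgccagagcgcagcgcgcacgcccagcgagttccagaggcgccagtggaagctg

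All 4 cluster promoters held an H1 box at 117 or 119 bases before the start, a CCAAT box at 53 to 57 bases before it and TATATA at 30 to 34 bases before it. Of 27305 promoters of the same length, 5.76% held AAACACA, 35.7% CCAAT and 4.25% TATATA. The H1FX window held TATAAA at 31 bases before the start, a motif found in 12.0% of promoters, and none of the other 4 motifs. GGGCGG, found in 44.6% of promoters, was in the HIST1H1B and HIST1H1E windows only among the 5. These matches are descriptions of letters in the window. HIST1H1C and HIST1H1E shared the H1 box, the CCAAT box and TATATA, while their levels in si-Control were 24.7 and 0.828 RPKM. Promoter activity was not measured, and the split of reads among the cluster genes is uncertain.

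Each level below is an RPKM value, in which reads are divided by gene length and library total. A ratio is a difference in log2(RPKM + 1), and the added pseudocount makes it too small for low genes. The library totals recovered from the values were 36926834 reads for si-Control, 40442939 for si-HOIL-1#1 and 36344428 for si-HOIL-1#2, and all 5 linker histone genes gave whole reads over the spans listed in the table. Of all genes, 12403 averaged 1 RPKM or more and were compared. RBCK1, the targeted gene, was at 33.3, 9.97 and 12.3 RPKM in si-Control, si-HOIL-1#1 and si-HOIL-1#2, that is, at 29.9% and 36.8% of si-Control. Of 7 renal epithelial and carcinoma markers, 4 passed the same minimum, with median ratios of 0.88 and 0.95. PAX8 was at 124, 82.5 and 107 RPKM and KRT18 at 95.3, 142 and 172 RPKM, and 2 of the 4 were at least 2-fold higher with both siRNAs, beside 1.46% of all genes. These were KRT8 at 65.6, 172 and 238 RPKM (log2 ratios 1.38 and 1.84) and VIM at 664, 1512 and 1392 RPKM (1.19 and 1.07), while CA9, CDH16 and EPCAM were under 1 RPKM in every library. Of 8 markers of blood, endothelial, liver and stromal cells, 7 were under 1 RPKM in every library, their sum over the 8 was 5.03, 3.75 and 4.81 RPKM, CD3E was at 0 in each, and COL1A1 was the exception (4.68, 3.21 and 4.41 RPKM). Fewer cells of a kind and less RNA per cell cannot be told apart in such bulk libraries.

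H1FX and HIST1H1C made up nearly all of the summed RPKM of these 5 genes in each library, and both were lower with each RBCK1 siRNA. The other 3 genes were under 1 RPKM in every library. How fully mRNAs without a poly(A) tail were captured was not tested, so a low RPKM of a cluster gene need not mean little mRNA in the cells. Of the 2 genes that passed the minimum, 0 were at least 2-fold lower with either siRNA on the log2(RPKM + 1) scale as deposited, beside 3.27% of all genes compared with si-HOIL-1#1, 2.27% with si-HOIL-1#2 and 1.41% with both. Both were lower by some amount in both libraries, beside 38.2% of all genes (48.4% with si-HOIL-1#1 and 46.4% with si-HOIL-1#2). The median ratio of these 2 genes was -0.58 with si-HOIL-1#1 and -0.76 with si-HOIL-1#2, while the median of all genes compared was 0.019 and 0.035. As the family was chosen on this contrast, nothing further was read from these counts.

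**Figure D1:**
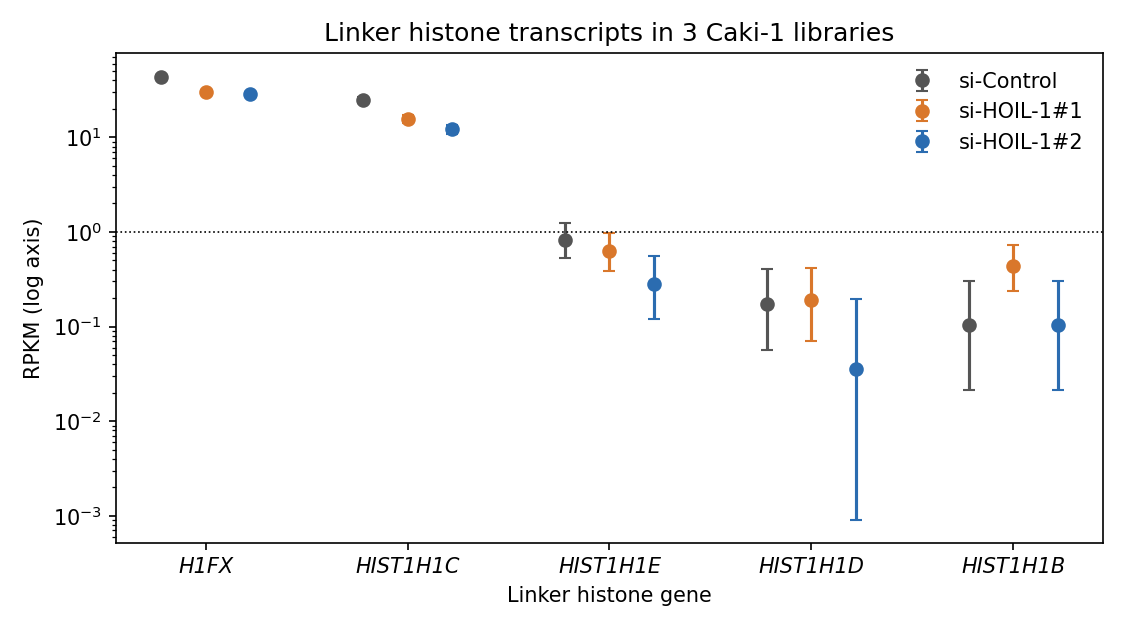
Level of each linker histone gene in RPKM (log axis) in the si-Control, si-HOIL-1#1 and si-HOIL-1#2 libraries, 1 library each. Points are the deposited values and bars are 95% exact Poisson intervals for counting error only; H1FX and HIST1H1C lie above the dotted line at 1 RPKM in all 3 libraries, with HIST1H1C going from 24.7 RPKM to 15.6 and 12.3 RPKM.

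H1FX, the divergent variant, has 1 exon, at chr3:129033614-129035120 (minus strand, hg19). Its level was 43.5 RPKM (2423 reads) in si-Control, 29.8 RPKM (1819 reads) with si-HOIL-1#1 and 29.01 RPKM (1589 reads) with si-HOIL-1#2. It was the highest of the 5 genes in every library, and the siRNA libraries were nearly level with each other. Its log2 ratios were -0.53 and -0.57, and by reads alone it was at 68.5% (95% interval 64.5% to 72.9%) and 66.6% (62.5% to 71.0%) of si-Control. These are exact Clopper-Pearson intervals and, like all intervals below, cover counting error only. The ratio between the 2 siRNA libraries was -0.04 (-0.14 to 0.06) on the log2 scale, which includes 0. In si-Control 1434 of the 10775 protein-coding genes compared had a higher level than H1FX, against 2275 with si-HOIL-1#1 and 2314 with si-HOIL-1#2. H1FX-AS1, an antisense RNA on the opposite strand, overlaps the listed H1FX span by 7 bases and was at 0.198, 0.383 and 0.389 RPKM. Whether the counting used strand is not given in the sources used here.

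HIST1H1C has 1 exon, at chr6:26055968-26056699 (minus strand, hg19), and was the only cluster gene of the 4 above 1 RPKM. Its level was 24.7 RPKM (667 reads) in si-Control, 15.6 RPKM (463 reads) with si-HOIL-1#1 and 12.3 RPKM (326 reads) with si-HOIL-1#2. Both siRNA libraries were below si-Control, and si-HOIL-1#2 was the lower. Its log2 ratios were -0.63 and -0.95. By reads, HIST1H1C was at 63.4% (56.2% to 71.5%) and 49.7% (43.4% to 56.8%) of si-Control, so with si-HOIL-1#2 it lay at the 2-fold limit, short of it as deposited (-0.95) and just past it without a pseudocount (-1.01), with a pseudocount of 0.1 RPKM (-1.004) or with libraries scaled to equal medians (-1.001). Between the siRNA libraries the log2 ratio was -0.35 (-0.56 to -0.14). In si-Control 2622 protein-coding genes had a higher level than HIST1H1C, against 4017 with si-HOIL-1#1 and 4843 with si-HOIL-1#2.

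HIST1H1E, HIST1H1D and HIST1H1B, each with 1 exon, gave few reads. HIST1H1E (chr6:26156559-26157343, plus strand, hg19) had 24 reads in si-Control (0.828 RPKM), 20 with si-HOIL-1#1 (0.630 RPKM) and 8 with si-HOIL-1#2 (0.280 RPKM). Its log2 ratios were -0.17 and -0.51. By reads, the interval of the log2 ratio was -1.33 to 0.52 with si-HOIL-1#1, which includes 0, and -2.93 to -0.36 with si-HOIL-1#2, which does not. HIST1H1D (chr6:26234440-26235216, minus strand, hg19) had 5, 6 and 1 reads in the same order (0.174, 0.191 and 0.0354 RPKM), log2 ratios of 0.02 and -0.18, and intervals on reads of -1.84 to 2.18 and -7.86 to 0.86. A difference in HIST1H1D was not detectable at this depth. HIST1H1B (chr6:27834570-27835359, minus strand, hg19) had 3, 14 and 3 reads (0.103, 0.438 and 0.104 RPKM). Its log2 ratio with si-HOIL-1#1 was 0.38. By reads that ratio was 2.09, with an interval of 0.25 to 4.53, which does not include 0 but rests on 3 and 14 reads. With si-HOIL-1#2 the interval on reads was -2.88 to 2.92, which includes 0. The cluster genes are close in coding sequence, and how the authors assigned reads that match more than 1 of them is not given in the sources used here, so the split of reads among them is uncertain.

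H1FX, HIST1H1C and HIST1H1E kept this order of levels in all 3 libraries. In si-Control the exact Poisson intervals were 41.8 to 45.3 RPKM for H1FX, 22.8 to 26.6 RPKM for HIST1H1C and 0.530 to 1.23 RPKM for HIST1H1E, with no overlap. The intervals of H1FX and HIST1H1C were 28.5 to 31.2 and 14.2 to 17.1 RPKM with si-HOIL-1#1, and 27.6 to 30.5 and 10.96 to 13.7 RPKM with si-HOIL-1#2. Among the scarce genes, HIST1H1D and HIST1H1B were not apart in si-Control (0.0566 to 0.407 and 0.0212 to 0.301 RPKM), and no neighbours among HIST1H1E, HIST1H1B and HIST1H1D were apart with either siRNA.

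**Figure D2:**
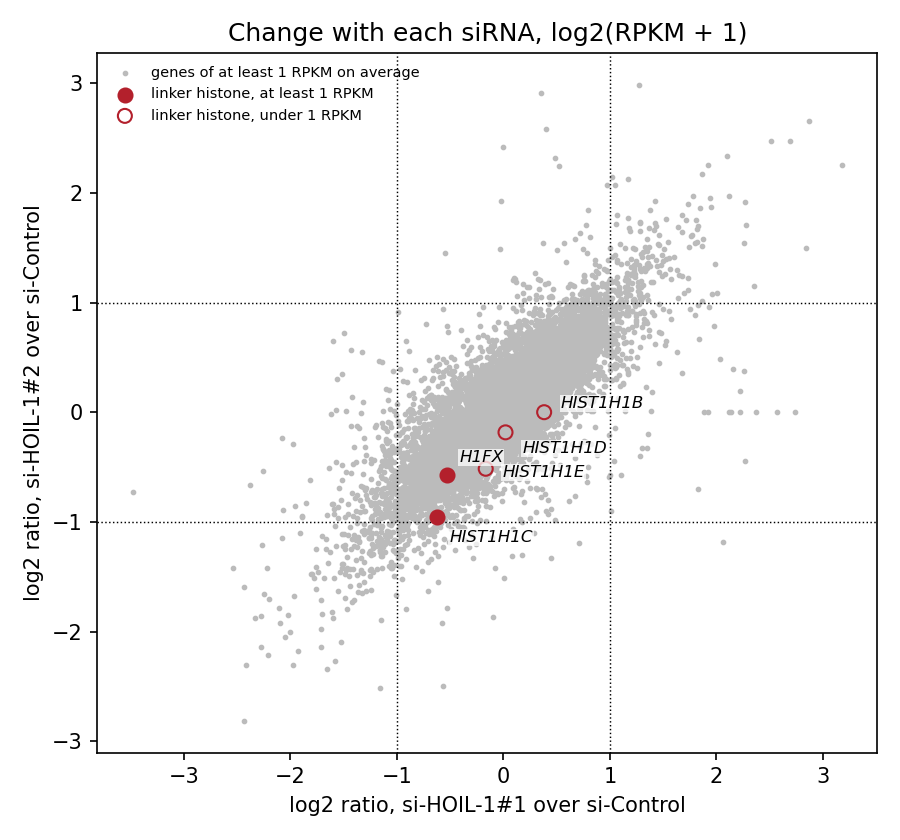
Log2 ratio on the log2(RPKM + 1) scale with si-HOIL-1#1 (horizontal) against si-HOIL-1#2 (vertical), both over the same si-Control library. Grey points are genes averaging 1 RPKM or more, filled red points the linker histone genes that passed that minimum and open circles those that did not, and dotted lines mark 2-fold; H1FX and HIST1H1C lie at -0.53 and -0.57 and at -0.63 and -0.95.

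Summed over the 5 genes, linker histone transcripts made up 69.3 RPKM in si-Control, 46.7 RPKM with si-HOIL-1#1 and 41.7 RPKM with si-HOIL-1#2. The sums with the siRNAs were 67.4% (63.7% to 71.4%) and 60.1% (56.6% to 63.9%) of si-Control. H1FX made up 62.8% of the sum in si-Control, 63.8% with si-HOIL-1#1 and 69.6% with si-HOIL-1#2, and HIST1H1C 35.6%, 33.5% and 29.4%. H1FX accounted for 60.7% and 52.6% of the drop in the sum, and HIST1H1C for 40.0% and 44.9%. The 4 cluster genes summed to 25.8, 16.9 and 12.7 RPKM, or 65.5% (58.4% to 73.5%) and 49.2% (43.2% to 56.0%) of si-Control. HIST1H1B, HIST1H1D and HIST1H1E together had 32, 40 and 12 reads, so their sum stood at 114% (71.6% to 181%) and 38.0% (19.6% to 73.8%) of si-Control, an interval that includes no change with si-HOIL-1#1 and not with si-HOIL-1#2.

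**Figure D3:**
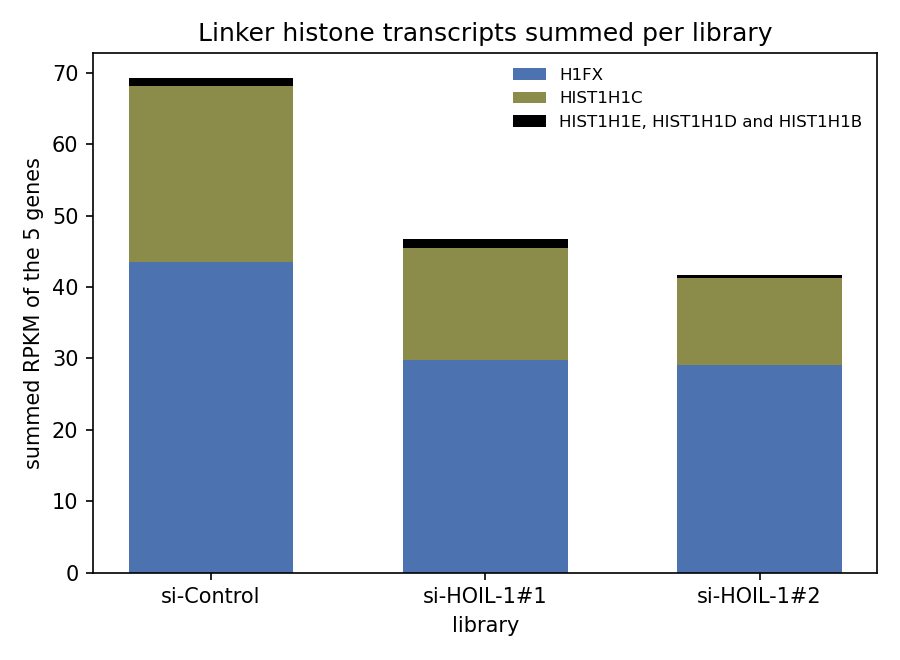
Summed RPKM of the 5 linker histone genes in each library, stacked by gene, 1 library per bar and no error bars drawn. The sum drops from 69.3 RPKM in si-Control to 46.7 RPKM and 41.7 RPKM, with H1FX making up 62.8%, 63.8% and 69.6% of the bar.

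A further 5 linker histone genes, most of them known from germ cells, were almost without reads. HIST1H1A and the germ cell gene H1FNT had 0 reads in every library, and for HIST1H1A a count of 0 allows up to 0.104, 0.0950 and 0.106 RPKM (3 reads). The oocyte gene H1FOO had 0, 1 and 0 reads and the spermatid gene HILS1 0, 4 and 0. HIST1H1T, the testis H1 of the cluster, had 2, 1 and 6 reads (0.0747, 0.0341 and 0.228 RPKM).

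The core histone genes of the clusters, whose mRNAs also end mostly in a stem-loop, were likewise mostly low. Of 64 listed, 45 were under 1 RPKM in every library and 14 passed the minimum. These 14 had median ratios of -0.14 with si-HOIL-1#1 and 0.06 with si-HOIL-1#2. With si-HOIL-1#1 1 gene was at least 2-fold lower, beside 3.27% of all genes. With si-HOIL-1#2 0 were at least 2-fold changed, beside 2.27% of all genes lower and 2.50% higher. Their sum over the 64 was 130, 96.2 and 111 RPKM. HIST1H2AC, an H2A gene, was at 36.7, 14.4 and 22.3 RPKM (log2 ratios -1.29 and -0.69), and HIST1H2BD, an H2B gene 1006 bases from HIST1H1E on the same strand, at 12.7, 7.46 and 7.82 RPKM (-0.70 and -0.64). HIST1H2BK, another H2B gene and the highest of the 64 in both siRNA libraries, was nearly level at 35.8, 35.4 and 33.3 RPKM (-0.01 and -0.10). HIST2H2AA3, another H2A gene, stood higher at 1.57, 3.61 and 2.78 RPKM (0.84 and 0.56). HIST1H4C, an H4 gene, was at 1.53, 2.35 and 2.40 RPKM (0.40 and 0.43), and its intervals on reads include 0.

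Other RNAs without a poly(A) tail differed in level among the 3 libraries. This list was chosen after values were seen. The noncoding RNA RN7SK, which holds back the elongation factor P-TEFb, had 14 reads in si-Control (1.14 RPKM), 56 with si-HOIL-1#1 (4.17 RPKM) and 193 with si-HOIL-1#2 (15.99 RPKM). RN7SL1 and RN7SL2, RNAs of the signal recognition particle, were at 58.5, 84.7 and 282 RPKM and at 99.99, 130 and 295 RPKM. RPPH1, the RNase P RNA, was at 1.43, 1.60 and 4.60 RPKM and RMRP, the RNase MRP RNA, at 1.21, 0.0923 and 1.13 RPKM. The sample records describe ribosomal RNA removal and name no poly(A) selection. The part of these differences in the cluster histone values was not tested. In the GENCODE v29 transcripts, the polyadenylation signal AATAAA occurs once in H1FX, starting 22 bases from the end, and 0 times in each of the 4 cluster transcripts. The transcripts of HIST1H1B, HIST1H1C, HIST1H1D and HIST1H1E were 681, 642, 666 and 754 nt, shorter than their listed spans of 790, 732, 777 and 785 nt. That of H1FX was as long as its span, 1507 nt. A signal in the part left out could not be found, so nothing was read from the absence in the cluster genes.

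Replacement core histones, which are also made outside S phase, had median ratios of 0.13 and 0.20 over the 9 of 10 that passed. With si-HOIL-1#1 0 were at least 2-fold changed, beside 3.27% of all genes lower and 2.91% higher. With si-HOIL-1#2 1 was higher, beside 2.50% of all genes. That gene was H2AFX, the variant phosphorylated at DNA breaks (22.5, 41.8 and 56.5 RPKM, log2 ratios 0.87 and 1.29). H2AFY, a macroH2A gene, stood at 0.39 and 0.34. H2AFY2, the other macroH2A gene, stood at -0.57 and -0.79, and H2AFJ, an H2A variant, at -0.47 and -0.57.

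A further list held genes for the processing of histone mRNA ends and for the histone locus body. Its median ratios were 0.26 and 0.22 over the 17 of 19 that passed. SRRT, which links the cap-binding complex to RNA processing, was the 1 gene at least 2-fold higher with both siRNAs (12.8, 51.8 and 52.5 RPKM, log2 ratios 1.94 and 1.96), beside 1.46% of all genes. SLBP, the stem-loop binding protein itself, was at 28.0, 51.5 and 50.8 RPKM (0.86 and 0.84). CPSF2, a cleavage factor subunit, stood at -0.49 and -0.52 and NCBP2, a cap-binding subunit, at -0.58 and -0.19. Histone mRNA decay genes had medians of -0.09 and -0.12, and of the 10 that passed, CTIF, a cap-binding complex translation factor, was at least 2-fold lower with both siRNAs (6.72, 1.83 and 1.74 RPKM, -1.45 and -1.49), beside 1.41% of all genes. MIF4GD, the SLBP partner in translation, stood at -0.89 and -0.80, and UPF1, the decay helicase, at 0.19 and 0.35.

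Chaperones, importers and modifiers of linker histones had medians of 0.29 and 0.14, with 0 of the 11 that passed at least 2-fold changed in either library, beside 3.27% of all genes lower and 2.91% higher with si-HOIL-1#1 and 2.27% and 2.50% with si-HOIL-1#2. PTMA, which encodes the acidic H1-binding protein prothymosin alpha, was at 413, 670 and 642 RPKM (log2 ratios 0.69 and 0.63), and NASP, a histone chaperone, stood at 0.51 and 0.48. SET, a chaperone and phosphatase inhibitor, was at 206, 109 and 156 RPKM (-0.91 and -0.40), and ANP32A stood at -0.45 and -0.42. High mobility group proteins, which compete with linker histones for nucleosomes, had medians of 0.04 and 0.02, both of which turned below 0 with another scaling of the libraries, and 0 of 10 were at least 2-fold changed, beside the same shares of all genes. HMGA1 was at 849, 699 and 652 RPKM (-0.28 and -0.38) and HMGB2 stood at -0.28 and -0.24, while HMGN1 stood at 0.40 and 0.41 and HMGN2 at 0.55 and 0.33.

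S phase genes stood the other way from H1FX and HIST1H1C, the linker histone genes that passed the minimum. All 13 were higher with each siRNA, while 48.4% of all genes were lower by some amount with si-HOIL-1#1 and 46.4% with si-HOIL-1#2. At least 2-fold higher were 11 with si-HOIL-1#1 (beside 2.91% of all genes), 10 with si-HOIL-1#2 (beside 2.50%) and 10 with both (beside 1.46%). The 13 had median ratios of 1.32 and 1.42. RRM2, the ribonucleotide reductase subunit, was at 12.6, 64.3 and 50.2 RPKM (2.27 and 1.92), and MCM4, a subunit of the replicative helicase, at 17.3, 57.3 and 62.9 RPKM (1.67 and 1.80). The listed values of TYMS, 1 of the 13, gave no whole reads. With 1 library per condition the difference between these genes and the linker histones has no test, and the part of the cell cycle in the linker histone levels was not tested.

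**Figure D4:**
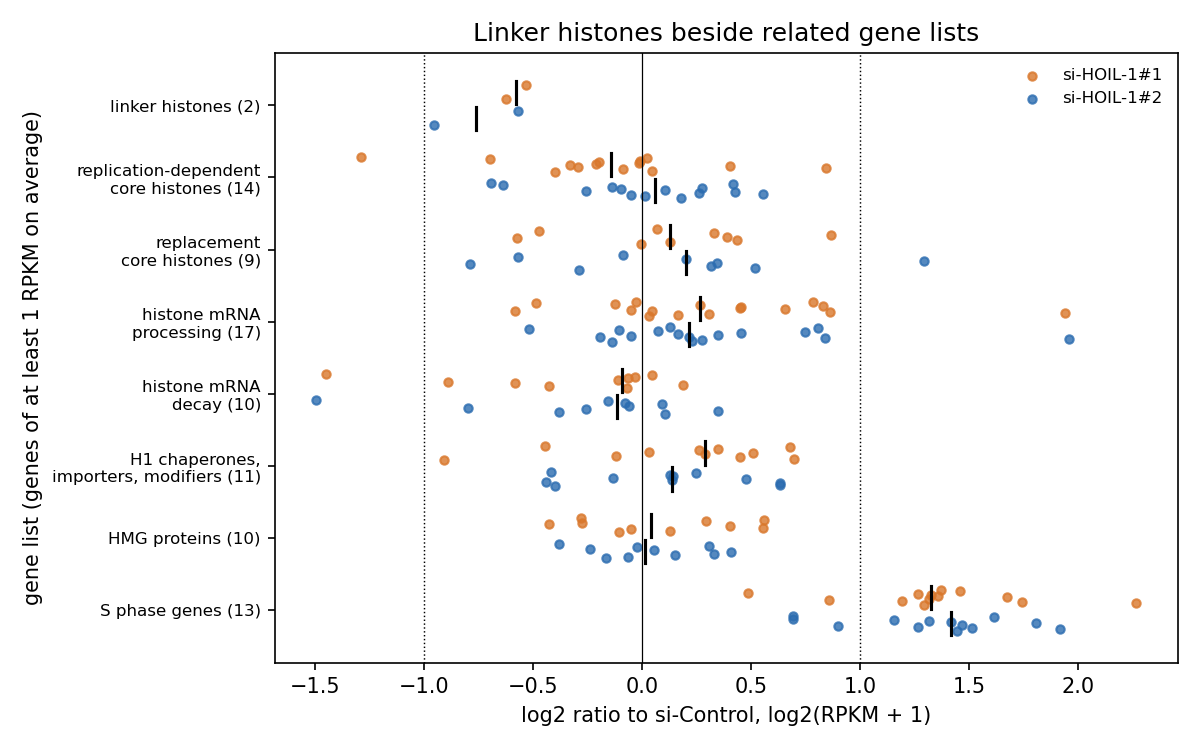
Log2 ratio to si-Control on the log2(RPKM + 1) scale for each gene averaging 1 RPKM or more, by gene list (number of genes in parentheses), with si-HOIL-1#1 in orange and si-HOIL-1#2 in blue. Black ticks are list medians and dotted lines mark 2-fold; the linker histone medians lie at -0.58 and -0.76 and those of the S phase genes at 1.32 and 1.42.

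The protein-coding genes nearest to each linker histone gene in the 2 ratios were found among 10773 genes by Euclidean distance over the 2 log2 ratios, which share the si-Control library. H1FX had 172 genes within 0.1, with ACSL5, USP3 and DECR1 the nearest. HIST1H1C had 19, with COL5A2, XBP1 and TIMM9 the nearest. HIST1H1E, HIST1H1D and HIST1H1B had 91, 318 and 122 genes within 0.1, at ratios that rest on few reads. Their nearest were CLOCK, FGD6 and APOO for HIST1H1E, UFSP1, GPATCH2 and AGTRAP for HIST1H1D, and SMIM4, TNIP3 and MESDC2 for HIST1H1B.

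Other genes within 50 kb of the linker histone genes were also examined. Near H1FX, HMCES stood at 0.54 and 0.53 and COPG1, a coatomer gene, at 0.13 and 0.34. Near HIST1H1C, the iron regulator HFE stood at 0.66 and 0.81. In the cluster, HIST1H2BC stood at 0.02 and 0.42, HIST1H3E at -0.33 and -0.26, HIST1H2BG at -0.01 and -0.14 and HIST1H2BN at -0.21 and 0.10.

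The siRNA sense strands are shown because a short match to the guide strand can lower a transcript other than the target. The study lists them as siRBCK1 #1 and siRBCK1 #2, and they were taken as si-HOIL-1#1 and si-HOIL-1#2 by number. Capitals mark the bases that pair with guide positions 2 to 8.
si-HOIL-1#1: ggtgcaccttcATCAACAa
si-HOIL-1#2: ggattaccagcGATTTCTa

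Neither full sequence occurs in a linker histone transcript of GENCODE v29. The capital bases of si-HOIL-1#1 occur in 0 of the 5 transcripts, beside 23.8% of the 10554 genes searched, and those of si-HOIL-1#2 occur in H1FX only, beside 29.2%. The HIST1H1C transcript searched, of 642 nt, held neither match. It and the other cluster transcripts were shorter than their listed spans (732 nt for HIST1H1C), so a match in the part left out could not be found. The shares of all genes come from transcripts of other lengths, and a longer transcript has more places for a match. An effect of either siRNA through such a match was not tested.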

How the data were processed

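Caki-1 RNA was sequenced in 3 libraries, 1 per condition. Per the labels, ribosomal RNA was removed and paired-end libraries were made with a directional kit; the methods name another sequencing provider. The submitters' processing notes name FastQC, Trimmomatic, TopHat2, HTSeq and hg19. The authors deposited RPKM values, reads scaled by gene length and library total. The authors' own control and treated values, log2 fold changes, p-values and q-values (5 columns) were not used. The 1 si-Control entry that is not a number was left out.

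Ratios were computed on log2(RPKM + 1) where the 3 libraries averaged 1 RPKM or more, and 2-fold was the limit. No p-value was computed, because there was 1 library per condition. Library totals came from the value steps of RNAs up to 200 nt, and reads followed from the RPKM values: 65 of 69 histone genes (94.2%) gave whole reads within 0.01. With 0 replicates of a condition, the exact 95% intervals cover counting error only, and those of summed levels are approximate. The members and lists were chosen with earlier results of these data known. 1 linker histone gene and 1 marker are not reported here. Named genes were the 5 members, RBCK1, the 2 largest falls and rises of each list by the smaller of the 2 ratios, the 3 genes nearest to each member in ratio, genes within 50 kb and the cell markers; other genes were chosen after their values were seen. Alternatives were other pseudocounts, scalings, filters and limits, and recovered reads. The steps were tested on simulated data. Tools were pandas 2.3.3, numpy 2.4.6, matplotlib 3.10.9 and scipy 1.17.1 in Python 3.11.15.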

Additional observations from a re-analysis of the deposited data

Results flagged for a closer look

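HIST1H1D was the 1 gene of the 5 whose log2 ratios went in opposite directions with the 2 siRNAs, at 0.02 with si-HOIL-1#1 and -0.182 with si-HOIL-1#2. The difference between the 2 was not tested. It rests on 5 reads in si-Control, 6 with si-HOIL-1#1 and 1 with si-HOIL-1#2, and the interval of the log2 ratio between the siRNA libraries was -7.95 to 0.61.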

How the results depend on the processing

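Of 100 alternative values, 87 stayed within the counting error of the reported value or, for numbers of genes, within 1.5 times it. The other 13 moved beyond these bounds, and 0 changed the direction of a called value. Some of the 87 could not have moved. The mean of the 2 linker histone genes that passed equals their median, and a mean of at least 5 RPKM kept the same 2 genes. No member ratio reached the 2-fold limit as deposited, so none was a called value. Only medians and summed levels could be counted as changing direction. The intervals of the scarce genes are wide: with pseudocounts of 0.1 and 5 RPKM and by reads, the ratio of HIST1H1B with si-HOIL-1#1 was 1.41, 0.09 and 2.09, that of HIST1H1D with si-HOIL-1#2 -1.02, -0.04 and -2.30, and that of HIST1H1E -0.35, -0.05 and -0.39 with si-HOIL-1#1 and -1.29, -0.14 and -1.56 with si-HOIL-1#2. HIST1H1C with si-HOIL-1#2 passed the 2-fold limit with a pseudocount of 0.1 RPKM (-1.004), by reads (-1.01) and with libraries scaled to equal medians (-1.001). The median of the linker histone genes became -0.17 and -0.51 without the filter, since the 3 scarce genes then enter. The number of genes at least 2-fold changed with si-HOIL-1#1, si-HOIL-1#2 and both was 766, 591 and 356. It was 1346, 1085 and 673 with a pseudocount of 0.1 RPKM, 219, 198 and 125 with 5 RPKM, and 2934, 2556 and 1700 at a 1.5-fold limit. A mean of at least 5 RPKM gave 455 with si-HOIL-1#1 and 391 with si-HOIL-1#2. HIST1H1B with si-HOIL-1#2, at 0.0022, fell below 0 with another scaling. No paired analysis was possible because there was 1 library for every condition, and no library could be left out. Depth limits HIST1H1B, HIST1H1D and HIST1H1E most, with 1 to 24 reads each.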
